A study of Mus musculus with 12 samples.

Results

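The TAM receptors are Tyro3, Axl and Mertk, a small family of receptor tyrosine kinases, and their ligands are the secreted proteins encoded by Gas6 and Pros1. The 5 genes were chosen for their place in the pathway, with earlier results of these data known, and make up 5 of the 46517 genes counted in this series. Of these, 4 passed the filter on low counts that left 14216 genes for testing, and Tyro3 did not. Macrophages of wild-type adult C57/BL6 mice were sorted as viable cells that carried CD45, CD64, MerTK, CD11b and F4/80, and were then divided by surface LYVE1, a hyaluronan receptor of lymphatic vessels that also marks a subset of tissue macrophages. The 4 groups were LYVE1+ and LYVE1- macrophages of the aorta, from 30 mice, and LYVE1+ and LYVE1- macrophages of the epididymal and subcutaneous fat, from 20 mice, with 3 RNA sequencing libraries each. The labels name no transgene and no treatment, and cells without MerTK protein were outside the gate in all 4 groups. Whether separate pools of mice gave the 3 libraries is not stated in the labels, so each p-value measures the spread between these libraries, which may be technical.

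TAM receptors do not bind a dying cell directly. The amino terminus of GAS6 or protein S (the product of Pros1) carries glutamates that are carboxylated with the help of vitamin K, which lets it bind phosphatidylserine on the surface of the dying cell, and the other end of the protein binds and activates the receptor. AXL responds to GAS6 and not to protein S, while MERTK and TYRO3 can be activated by both. In mouse macrophages MERTK is the TAM receptor best known from resting, engulfing cells, and AXL the one that inflammatory stimuli and interferon raise. Activated receptors drive engulfment and restrain cytokine signalling.

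Library totals ran from 5049936 to 29792301 counts. In the fat, both libraries numbered 1 stood apart, with 8.85% of counts from mitochondrial genes in the LYVE1+ library and 12.1% in the LYVE1- library, against 1.79 to 3.2% in the other 10. Their summed erythroid transcripts were 25100 and 5220 CPM (the usual scaling of a gene's counts to the library total, here adjusted by edgeR's TMM factors), against at most 1400 CPM elsewhere. The sort was visible in the RNA: Lyve1 averaged 2532 ± 423 CPM in aortic LYVE1+ libraries and 1023 ± 260 CPM in aortic LYVE1- libraries, and in the fat 1928 ± 377 CPM in LYVE1+ libraries and 470.2 ± 209 CPM in LYVE1- libraries (SD, n = 3 each), with edgeR adjusted p-values of 0.108 in the aorta and 0.00383 in the fat. Transcripts of the other proteins of the gate (Ptprc, Fcgr1, Mertk, Itgam, Adgre1) were found in every group, and none of these passed the threshold of 0.05 between LYVE1+ and LYVE1- cells of either tissue in edgeR's quasi-likelihood test with Benjamini-Hochberg adjustment over all tested genes. Ptprc, which encodes CD45, was lower in LYVE1+ cells on the average of both tissues (log2 -0.49, edgeR adjusted p = 0.0453), a call lost in 9 of the 12 fits without 1 library. Over all 20 alternative settings this call was lost in 10, at edgeR adjusted p-values of up to 0.233.

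The promoters of the 3 members that passed a test are given here, because the receptor and the ligands moved in opposite directions in the LYVE1+ cells. Each is the 250 bases before the transcription start in RefSeq (GRCm38.p6), read 5′ to 3′ on the gene's strand, with capitals on every match to the GC box GGGCGG on either strand, overlapping matches included.
Axl, chr7:25788734-25788983 on the minus strand: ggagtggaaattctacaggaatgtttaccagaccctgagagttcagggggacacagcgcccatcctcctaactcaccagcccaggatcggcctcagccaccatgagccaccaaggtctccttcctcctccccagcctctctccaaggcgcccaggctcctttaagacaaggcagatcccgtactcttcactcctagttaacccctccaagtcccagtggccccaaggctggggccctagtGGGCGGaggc
Gas6, chr8:13494536-13494785 on the minus strand: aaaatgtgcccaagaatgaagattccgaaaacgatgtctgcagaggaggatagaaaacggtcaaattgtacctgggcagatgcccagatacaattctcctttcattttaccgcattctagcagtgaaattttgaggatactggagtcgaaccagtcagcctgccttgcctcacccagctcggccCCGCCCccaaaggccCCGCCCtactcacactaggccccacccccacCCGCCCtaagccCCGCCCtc
Pros1, chr16:62854057-62854306 on the plus strand: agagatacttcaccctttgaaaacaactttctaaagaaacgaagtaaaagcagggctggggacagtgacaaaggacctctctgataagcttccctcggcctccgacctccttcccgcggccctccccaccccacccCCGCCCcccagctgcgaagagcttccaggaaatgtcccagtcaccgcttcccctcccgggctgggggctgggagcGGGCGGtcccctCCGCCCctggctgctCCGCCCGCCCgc

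All 5 members had 1 entry in the promoter table, and each window held a GC box: 1 match in Axl, 3 each in Mertk and Tyro3, 4 in Gas6 and 5 in Pros1. Of 32851 mouse promoters of the same length, 32.7% held one. The AP-1 motif TGANTCA, the interferon-stimulated response element (GAAA, 2 bases of any kind, then GAAA), the PU.1 motif GAGGAAGT and the MAF recognition motif TGCTGAC, each searched on both strands, were in none of the 5 windows, against 6.75%, 2.98%, 2.44% and 3.81% of all promoters. The G and C content was 60.0% in Axl, 63.6% in Mertk, 73.2% in Tyro3, 54.8% in Gas6 and 64.4% in Pros1, against a median of 52.4% over all promoters.

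LYVE1+ macrophages held far less Axl transcript than LYVE1- macrophages in both tissues. Axl (ENSMUSG00000002602) lies on chromosome 7, bases 25757273 to 25788705 on the minus strand of GRCm38, and its longest transcript has 20 exons. In the aorta, Axl was measured at 29.64, 78.7 and 33.51 CPM in the LYVE1+ libraries, against 251, 207.5 and 226.7 CPM in the LYVE1- libraries. In the fat it was measured at 44.53, 41.42 and 31.25 CPM in the LYVE1+ libraries, against 360.6, 297.2 and 258.9 CPM in the LYVE1- libraries. No LYVE1+ library reached any LYVE1- library, and the highest of them was aortic LYVE1+ library 2. Axl was 4.84-fold lower in the aorta (log2 fold change -2.27, SE 0.31, edgeR quasi-likelihood adjusted p = 0.00619). It was 7.84-fold lower in the fat (-2.97, SE 0.32, edgeR adjusted p = 0.00047).

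Averaged over the tissues, Axl was 6.16-fold lower in LYVE1+ cells (log2 -2.62, 95% interval -3.11 to -2.14, edgeR adjusted p = 3.77e-05). It was the only 1 of the 4 tested members called in the aorta, where 0.542% of all tested genes were called, and it ranked 15th by p in each tissue. Leaving out any single library kept both calls. The difference between tissues in the size of the drop was 0.70 on the log2 scale, with a 95% interval of -0.23 to 1.62 and an edgeR adjusted p of 0.913. In bulk RNA, fewer cells that express a gene and less RNA of it per cell cannot be told apart.

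The library names carry 2 prefixes, and all fat libraries have the same prefix. In the aorta only LYVE1+ library 3 shares the other prefix with the 3 LYVE1- libraries. Within that prefix Axl stood at 33.51 CPM in the LYVE1+ library, against 207.5 to 251 CPM in the LYVE1- libraries. With the prefix as a term in the model, the aortic difference was -2.77 (SE 0.48) and the edgeR adjusted p rose to 0.257.

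**Figure D1:**
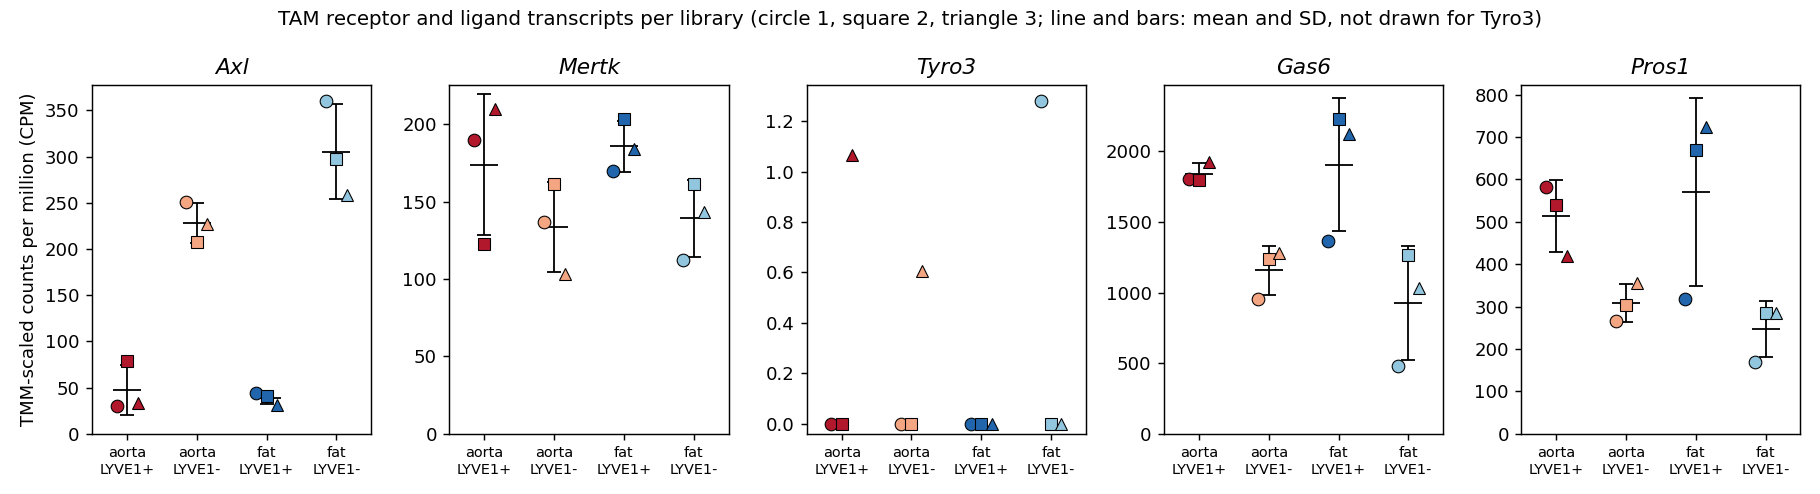
Level of each member per library in TMM-scaled CPM, with the 4 groups along the horizontal axis and libraries 1, 2 and 3 as circle, square and triangle; lines and bars give the mean and SD (n = 3), not drawn for Tyro3, which had counts in 3 libraries. Axl lies between 29.64 and 78.7 CPM in the LYVE1+ libraries and between 207.5 and 360.6 CPM in the LYVE1- libraries, while Gas6 and Pros1 have their higher means in LYVE1+ cells.

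Mertk, the receptor whose protein was used to sort the cells, was detected in every library, and no difference in it passed a test. The gene (ENSMUSG00000014361) lies on chromosome 2, bases 128698956 to 128802894 on the plus strand. In the aorta, Mertk gave 189.5, 122.4 and 209.7 CPM in the LYVE1+ libraries, against 137, 161.2 and 103.1 CPM in the LYVE1- libraries, and the groups overlapped. The fat gave 170.1, 203.3 and 183.7 CPM in the LYVE1+ libraries, against 112.6, 161.7 and 143 CPM in the LYVE1- libraries, which did not overlap. The log2 difference was 0.38 in the aorta (95% interval -0.09 to 0.85, edgeR adjusted p = 0.549) and 0.42 in the fat (-0.06 to 0.89, edgeR adjusted p = 0.399). The average over both tissues was 0.40 (0.06 to 0.73, edgeR adjusted p = 0.157). All cells were gated on MerTK protein, so these values say nothing of macrophages that lack it.

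Tyro3, the third receptor, was at the edge of detection. The gene (ENSMUSG00000027298) lies on chromosome 2, bases 119797733 to 119818104 on the plus strand. It had 15 counts in aortic LYVE1+ library 3, 10 in aortic LYVE1- library 3 and 10 in fat LYVE1- library 1, which came to 1.067, 0.6073 and 1.28 CPM. The other 9 libraries had no count, including all 3 LYVE1+ libraries of the fat, and a count of 0 allows a level of up to 0.102 to 0.576 CPM, depending on the library (3 counts, counting error only). It was not tested, and no difference between groups was detectable at this depth.

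Gas6, the ligand of all 3 receptors, was the most abundant member and stood higher in LYVE1+ cells. The gene (ENSMUSG00000031451) lies on chromosome 8, bases 13465374 to 13494490 on the minus strand, and 34 bases of its exons overlap Tmem255b on the other strand. In the aorta, Gas6 stood at 1804, 1798 and 1926 CPM in the LYVE1+ libraries, against 955.3, 1235 and 1280 CPM in the LYVE1- libraries. In the fat, Gas6 stood at 1368, 2229 and 2122 CPM in the LYVE1+ libraries, against 477.7, 1267 and 1034 CPM in the LYVE1- libraries. The groups overlapped in neither tissue, and library 1 was the lowest of its group in both fat groups.

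Averaged over the tissues, Gas6 rose 1.81-fold in LYVE1+ cells (log2 0.86, SE 0.21, 95% interval 0.40 to 1.31, edgeR adjusted p = 0.029). This call was lost, with edgeR adjusted p-values of 0.0507 to 0.0903, when any of 9 of the 12 libraries was left out: each of the 6 aortic ones, fat LYVE1+ libraries 2 and 3, and fat LYVE1- library 3. It was also lost with the library prefix in the model (0.89, edgeR adjusted p = 0.114). Within a tissue the difference was 0.67 in the aorta (SE 0.30, edgeR adjusted p = 0.412) and 1.04 in the fat (SE 0.30, edgeR adjusted p = 0.0759). Libraries of the same number clearly deviated together only for library 1 of the fat, and not in the aorta. With the replicate number as a block within each tissue, the fat difference was 1.12 (SE 0.15, edgeR adjusted p = 0.00213). Without the 2 fat libraries numbered 1 it was 0.92 (SE 0.15, edgeR adjusted p = 0.00232).

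Pros1, which encodes the anticoagulant protein S, was the second ligand and also stood higher in LYVE1+ cells. The gene (ENSMUSG00000022912) lies on chromosome 16, bases 62854307 to 62929346 on the plus strand. In the aorta, Pros1 stood at 581.5, 539.9 and 418.5 CPM in the LYVE1+ libraries, against 264.8, 304.7 and 354.5 CPM in the LYVE1- libraries. In the fat it stood at 316.9, 670.3 and 724.1 CPM in the LYVE1+ libraries, against 170.4, 285 and 284.9 CPM in the LYVE1- libraries. No LYVE1+ library fell to the level of a LYVE1- library of its tissue, and library 1 was again the lowest of both fat groups.

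Pros1 rose 2.31-fold in the fat (log2 1.21, SE 0.29, edgeR adjusted p = 0.0343). With Axl it made 2 of the 4 tested members called in the fat, where 3.93% of all tested genes were called. Averaged over the tissues it rose 1.96-fold (0.97, SE 0.20, 95% interval 0.53 to 1.41, edgeR adjusted p = 0.0131). The aortic difference was 0.74 (SE 0.29, edgeR adjusted p = 0.339). The average held in each fit that left out 1 library and was lost with the library prefix in the model (0.83, edgeR adjusted p = 0.115). The fat call was lost when the fat groups were fitted alone (1.22, edgeR adjusted p = 0.144) and, with edgeR adjusted p-values of 0.0506 to 0.176, without aortic LYVE1+ library 1, aortic LYVE1- library 2 or 3, fat LYVE1+ library 2 or 3, or any fat LYVE1- library.

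Across the average of both tissues, 3 of the 4 tested members were called, 1 lower and 2 higher, where 6.34% of all tested genes were called (2.91% higher and 3.43% lower). LYVE1+ and LYVE1- libraries did not overlap for 3 of the 4 tested members in the aorta (Axl, Gas6 and Pros1), as for 22.4% of all tested genes, and for 4 of 4 in the fat, as for 18.9%. The median log2 difference of all tested genes was -0.01 in the aorta and 0.00482 in the fat.

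**Figure D2:**
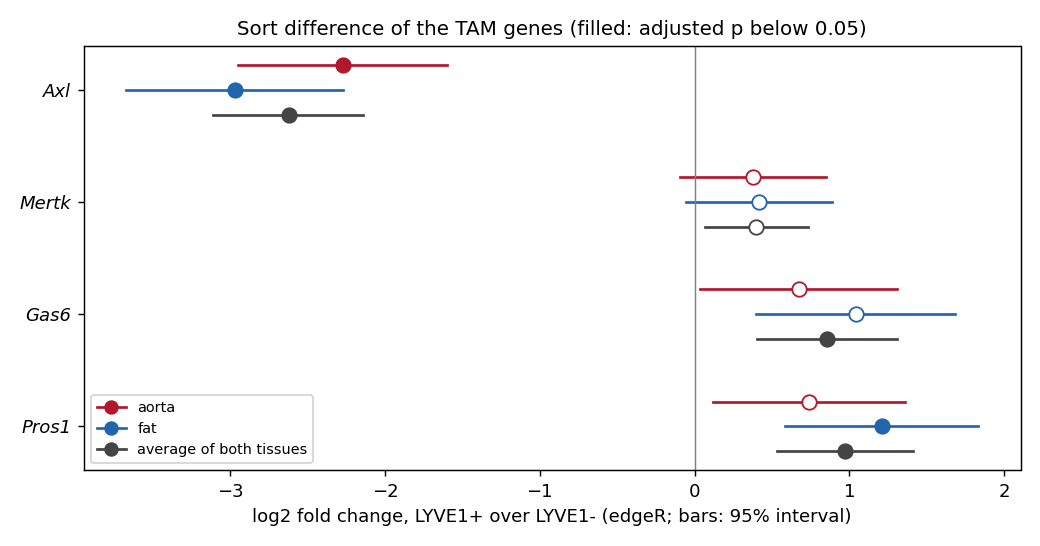
Log2 fold change of LYVE1+ over LYVE1- libraries for the 4 tested members in the aorta, the fat and the average of both, with 95% intervals from the edgeR fit; filled points have an adjusted p below 0.05. Axl lies at -2.27 in the aorta and -2.97 in the fat, Gas6 and Pros1 lie above 0 in both, and the interval of Mertk includes 0 in each tissue.

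No tested member was called between the aorta and the fat. Between aortic and fat LYVE1+ cells the log2 difference was 0.28 for Axl, -0.10 for Mertk, -0.05 for Gas6 and -0.15 for Pros1, with edgeR adjusted p-values of 0.746 to 0.962. Each of these values changed direction in at least 1 fit without 1 library: Axl (-0.30) and Mertk (0.11) without aortic LYVE1+ library 2, Gas6 without fat LYVE1+ library 2 (0.09) or 3 (0.04), and Pros1 without fat LYVE1+ library 3 (0.06). None of the 4 tested members was called there, against 3% of all tested genes. Between aortic and fat LYVE1- cells the differences were -0.42 for Axl, -0.06 for Mertk, 0.32 for both ligands, with edgeR adjusted p-values of 0.561 to 0.941. Every aortic LYVE1- library differs from every fat library in its prefix, so tissue and prefix cannot be told apart within this comparison. With the prefix in the model, the genes called in it fell from 353 to 7. The Axl value turned to 0.27 with the library prefix in the model, and the Mertk value to 0.10 and 0.07 without aortic LYVE1- library 3 and fat LYVE1- library 2. Again none was called, against 2.48% of all tested genes, and the aortic and fat libraries overlapped for each tested member except Axl, against 21.1% of all tested genes whose libraries did not overlap. The change with LYVE1 was not shown to differ between the tissues for any of the 4 tested members (edgeR adjusted p of 0.913 to 1), a test that called 0.155% of all tested genes.

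Per kilobase of exon, Gas6 was the most abundant member in each group, and the order of Axl and Mertk differed between LYVE1+ and LYVE1- cells. In CPM per kilobase of exon, Gas6 averaged 723.3 ± 28.3 in aortic LYVE1+ cells, 454 ± 69.1 in aortic LYVE1- cells, while the fat gave 748.2 ± 184 in LYVE1+ and 363.6 ± 159 in LYVE1- cells (SD, n = 3 each). Pros1 averaged 125.6 ± 20.7, Mertk 40.1 ± 10.5 and Axl 9.396 ± 5.42 in aortic LYVE1+ cells on the same scale, so that Mertk stood above Axl. In aortic LYVE1- cells Pros1 averaged 75.34 ± 11, Axl 45.38 ± 4.33 and Mertk 30.85 ± 6.74, with Axl above Mertk.

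The fat gave the same order within LYVE1+ cells, with Pros1 at 139.5 ± 54.1, Mertk at 42.83 ± 3.85 and Axl at 7.762 ± 1.38 CPM per kilobase. In fat LYVE1- cells Axl, at 60.71 ± 10.2, and Pros1, at 60.37 ± 16.2, differed by less than the spread between libraries, and Mertk stood at 32.08 ± 5.72. Tyro3 averaged at most 0.0688 CPM per kilobase in any group.

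The ratio of Axl to Mertk within a library, which no scaling between libraries can alter, was also compared. It rests on the same counts as the tests of Axl and Mertk above and is not separate evidence of the Axl difference. Axl had 0.157, 0.643 and 0.16 counts per Mertk count in the aortic LYVE1+ libraries, against 1.83, 1.29 and 2.2 in the aortic LYVE1- libraries. In the fat the ratio was 0.262, 0.204 and 0.17 in the LYVE1+ libraries, against 3.2, 1.84 and 1.81 in the LYVE1- libraries. Mertk counts exceeded Axl counts in 6 of 6 LYVE1+ libraries, and Axl counts exceeded Mertk counts in 6 of 6 LYVE1- libraries. The ratio was 8.5-fold lower in LYVE1+ cells over both tissues (log2 -3.09, two-sided exact permutation test within tissue, p = 0.005, the smallest it can give, and 0.01 adjusted over the 2 ratios tested). Within one tissue the exact test cannot go below 0.1, which both tissues reached, at -2.78 in the aorta and -3.40 in the fat.

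The proportion of the 2 ligands did not pass a test of difference. Gas6 had 3.1, 3.33 and 4.6 counts per Pros1 count in the aortic LYVE1+ libraries, against 3.61, 4.05 and 3.61 in the aortic LYVE1- libraries. In the fat it had 4.32, 3.33 and 2.93 in the LYVE1+ libraries, against 2.8, 4.45 and 3.63 in the LYVE1- libraries. The groups overlapped in both tissues, and the log2 difference over both was -0.04 (exact permutation test, two-sided, p = 0.77).

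**Figure D3:**
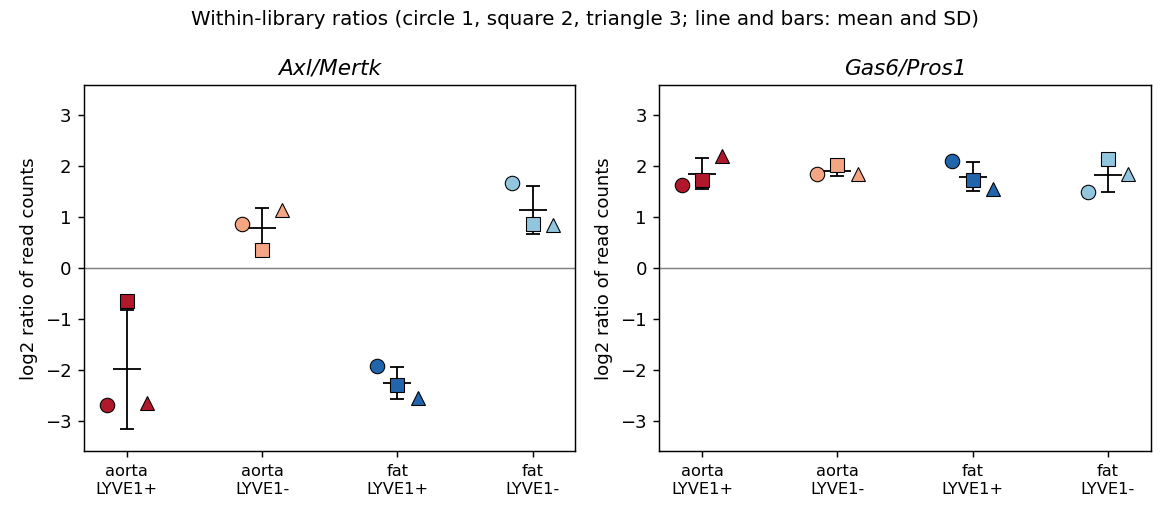
Counts of Axl per count of Mertk, and of Gas6 per count of Pros1, in each library on a log2 scale, with the 4 groups along the horizontal axis and lines and bars for the mean and SD (n = 3). The Axl to Mertk ratio lies between 0.157 and 0.643 (below 0 on the log2 scale) in the LYVE1+ libraries and between 1.29 and 3.2 (above 0) in the LYVE1- libraries, while the Gas6 to Pros1 ratio lies between 2.8 and 4.6 with the groups overlapping.

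Among other reported ligands of MERTK, Lgals3 (galectin-3) was lower in LYVE1+ cells, against the direction of Gas6 and Pros1. It averaged 288.9 ± 12.2 CPM in fat LYVE1+ libraries and 637.1 ± 147 CPM in fat LYVE1- libraries (log2 -1.14, SE 0.16, edgeR adjusted p = 0.00182). In the aorta it averaged 306.5 ± 25.9 CPM in LYVE1+ libraries and 479 ± 10.1 CPM in LYVE1- libraries (-0.64, edgeR adjusted p = 0.113). The average over both tissues was -0.89 (edgeR adjusted p = 0.000662). The other listed ligands, Tub and Tulp1, were too low to be tested.

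Of 14 tested genes, from a list of 17, for other receptors and bridging proteins of dying cells, 2 rose and 3 fell in fat LYVE1+ cells. None of the 14 was called in the aorta. Of all tested genes, 3.93% were called in the fat and 0.542% in the aorta. The median log2 difference of the 14 was 0.09 in the aorta and -0.35 in the fat. Timd4, a phosphatidylserine receptor that tethers dying cells, averaged 207 ± 78.5 CPM in fat LYVE1+ libraries and 46.14 ± 24.2 CPM in fat LYVE1- libraries (log2 2.16, SE 0.37, edgeR adjusted p = 0.00586). In the aorta it averaged 256.1 ± 17.7 CPM in LYVE1+ libraries and 147.4 ± 17.9 CPM in LYVE1- libraries (0.80, edgeR adjusted p = 0.426). Stab1, which encodes the scavenger receptor stabilin-1, also rose in the fat, with averages of 1654 ± 81.7 CPM in LYVE1+ libraries and 1020 ± 154 CPM in LYVE1- libraries (0.70, edgeR adjusted p = 0.0233).

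The receptors that fell in fat LYVE1+ cells were Itgb5, Cd300lb and Lrp1. Itgb5, an integrin subunit that takes up cells coated with the bridging protein MFGE8, averaged 6.357 ± 2.8 CPM in fat LYVE1+ libraries and 28.96 ± 11.5 CPM in fat LYVE1- libraries (log2 -2.17, SE 0.36, edgeR adjusted p = 0.00522). Cd300lb, an activating receptor for phosphatidylserine, averaged 91.82 ± 6.31 CPM in fat LYVE1+ libraries and 188.9 ± 33.4 CPM in fat LYVE1- libraries (-1.04, SE 0.19, edgeR adjusted p = 0.00877). Lrp1, a large endocytic receptor, averaged 247.1 ± 21.5 CPM in fat LYVE1+ libraries and 366.3 ± 37.5 CPM in fat LYVE1- libraries (-0.57, edgeR adjusted p = 0.0457). In the aorta the log2 difference was -0.30 for Itgb5, -0.87 for Cd300lb and 0.19 for Lrp1, with edgeR adjusted p-values of 0.0719 to 0.785, and for Stab1 it was 0.45 (0.274). Stab1 and Lrp1 lie outside the rule for named genes and were picked after their values were seen. Stab1 lost its call in 4, and Lrp1 in 10, of the 12 fits without 1 library, with edgeR adjusted p-values of up to 0.114 and 0.202. Cd300lb lost its call without fat LYVE1+ library 2 (0.0584), and Timd4 and Itgb5 lost theirs when the fat groups were fitted alone (0.0688 and 0.0512). On the average of both tissues, Timd4 (log2 1.48), Stab1 (0.57), Cd300lb (-0.95) and Itgb5 (-1.23) were the ones of the 14 called. Their edgeR adjusted p-values were 0.00123 to 0.00997, and 6.34% of all tested genes were called there. The Itgb5 average lost its call in 1 of 20 alternative settings. Lrp1 was not called on the average (-0.19, edgeR adjusted p = 0.321).

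Of 13 tested genes of engulfment signalling (adaptors, RAC activators and kinases), none was called in either tissue. Of all tested genes, 0.542% were called in the aorta and 3.93% in the fat. The median log2 difference of the 13 was -0.06 in the aorta and -0.17 in the fat. On the average of both tissues Ptk2, the focal adhesion kinase, rose (log2 0.62, edgeR adjusted p = 0.0269) and Plcg2, a phospholipase, fell (-0.40, edgeR adjusted p = 0.0383). Each lost its call in 8 of the 12 fits without 1 library, at edgeR adjusted p-values of up to 0.0904 and 0.109. Over all 20 alternative settings Ptk2 lost its call in 9 (up to 0.228) and Plcg2 in 10 (up to 0.109).

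Ligand maturation was represented by 4 genes. The carboxylase and vitamin K cycle genes Ggcx, Vkorc1 and Vkorc1l1 were not called, while Furin, the protease that cuts the propeptides of many secreted proteins, fell in fat LYVE1+ cells. Furin averaged 78.69 ± 23.3 CPM in fat LYVE1+ libraries and 185.4 ± 71.2 CPM in fat LYVE1- libraries (log2 -1.24, SE 0.27, edgeR adjusted p = 0.0223). In the aorta it averaged 103.4 ± 20.5 CPM in LYVE1+ libraries and 234.7 ± 31.8 CPM in LYVE1- libraries (-1.18, edgeR adjusted p = 0.083), and the average over both tissues was -1.21 (edgeR adjusted p = 0.00244). The fat call was lost without fat LYVE1+ library 2 or 3 or fat LYVE1- library 1, at edgeR adjusted p-values of up to 0.11, and when the fat groups were fitted alone (0.107).

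None of the 3 genes of receptor shedding was called in a LYVE1 comparison. Of all tested genes, 0.542% were called in the aorta, 3.93% in the fat and 6.34% on the average. Adam10, the most abundant of the 3, averaged 191 ± 44.5 CPM in aortic LYVE1+ libraries and 189.4 ± 25.3 CPM in aortic LYVE1- libraries. None of the 5 tested genes, of 7 listed, for cytokine feedback below the receptors was called either, and Socs3, a brake on cytokine signalling, averaged 1530 ± 145 CPM in aortic LYVE1+ libraries and 1433 ± 131 CPM in aortic LYVE1- libraries.

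Liver X receptors raise Mertk in mouse macrophages that take up dying cells. Among 10 genes for nuclear receptors and cholesterol efflux, whose median log2 difference was -0.04 in the aorta and 0.01 in the fat, Pparg was the one called in both tissues. It averaged 2.306 ± 1.59 CPM in aortic LYVE1+ libraries and 12.03 ± 1.43 CPM in aortic LYVE1- libraries (log2 -2.39, SE 0.41, edgeR adjusted p = 0.0209). In the fat it averaged 6.328 ± 0.738 CPM in LYVE1+ libraries and 23.97 ± 8.4 CPM in LYVE1- libraries (-1.92, SE 0.40, edgeR adjusted p = 0.0169). The aortic call was lost with the library prefix in the model (edgeR adjusted p = 0.269) and without aortic LYVE1+ library 1 or 3 or aortic LYVE1- library 1 or 3, and the fat call without fat LYVE1+ library 2 or 3 or fat LYVE1- library 1, at edgeR adjusted p-values of up to 0.151, while the average over both tissues was -2.16 (edgeR adjusted p = 0.000877). Mylip, a target of the liver X receptors, rose in the fat, with averages of 66.55 ± 8.59 CPM in LYVE1+ libraries and 34.06 ± 2.96 CPM in LYVE1- libraries (0.97, edgeR adjusted p = 0.0139), a call that was lost without fat LYVE1+ library 3 (0.0833) or fat LYVE1- library 3 (0.0588). In the aorta Mylip averaged 58.59 ± 11.9 CPM in LYVE1+ libraries and 60.85 ± 12.4 CPM in LYVE1- libraries, and neither the aorta (-0.05, edgeR adjusted p = 0.95) nor the average (0.46, edgeR adjusted p = 0.065) passed.

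Of 6 genes that set phosphatidylserine exposure, none was called within a tissue. Of all tested genes, 0.542% were called in the aorta, 3.93% in the fat and 6.34% on the average. Plscr1, a scramblase, fell on the average of both tissues (log2 -1.53, edgeR adjusted p = 0.0298). Its call was lost in 7 of the 12 fits without 1 library (up to 0.0947). Over all 20 alternative settings it was lost in 8 (up to 0.227). None of 8 interferon-stimulated genes was called between LYVE1+ and LYVE1- cells of either tissue or on the average. Ifit1, the 1 called between tissues, averaged 575.8 ± 389 CPM in aortic and 38.81 ± 12 CPM in fat LYVE1+ libraries (log2 3.88, edgeR adjusted p = 0.00346), and the median of the 8 between these groups was 0.67.

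**Figure D4:**
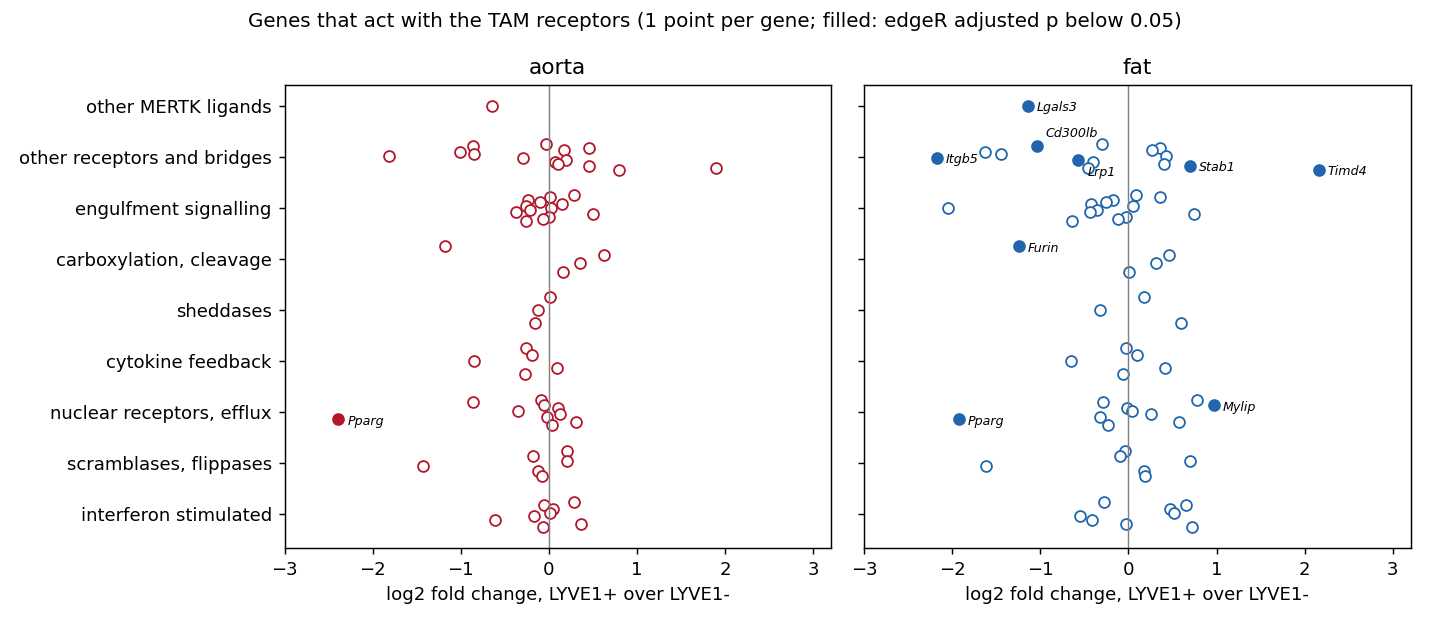
Log2 fold change of LYVE1+ over LYVE1- libraries for each tested gene of 9 lists of genes that act with the TAM receptors, 1 point per gene, with the aorta on the left and the fat on the right; filled points have an edgeR adjusted p below 0.05. Pparg at -2.39 is the one called in the aorta, and the 9 called in the fat run from Itgb5 at -2.17 to Timd4 at 2.16.

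The genes with the profile most like each member's were found by the root mean square of the difference in centred log2 CPM over the 12 libraries, among 6877 protein-coding genes. For Axl, whose own values spread by 1.4 around their mean, these were Mpeg1 (perforin-2) at 0.403, H2-DMb1 (a chaperone of MHC class II loading) at 0.448 and Vcam1 (an adhesion molecule) at 0.488. Mpeg1 averaged 84.04 ± 9.6 CPM in aortic LYVE1+ cells, 379.9 ± 110 CPM in aortic LYVE1- cells, while the fat gave 91.57 ± 31.2 CPM in LYVE1+ and 436.1 ± 68.4 CPM in LYVE1- cells (SD, n = 3 each). For Mertk, which spread by 0.32, they were Ncf1 at 0.106, Frmd4b at 0.119 and Ankrd16 at 0.126.

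The ligands shared a neighbour. For Gas6, which spread by 0.594, the nearest were Selenop (a selenium carrier) at 0.119, Bag5 at 0.126 and Sorbs3 at 0.138. For Pros1, which spread by 0.6, they were Bst1 at 0.163, F13a1 (the A subunit of clotting factor XIII) at 0.191 and Selenop at 0.193. F13a1 averaged 9757 ± 1600 CPM in aortic LYVE1+ cells, 5239 ± 730 CPM in aortic LYVE1- cells, while the fat gave 8363 ± 2780 CPM in LYVE1+ and 4377 ± 1880 CPM in LYVE1- cells. Vcam1, Ncf1, Sorbs3, Selenop, Bst1 and F13a1 have exons that overlap a gene on the other strand, which unstranded counts cannot tell apart.

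MHC class II transcripts and some markers of other blood cells differed with LYVE1 as well, not all of them in both tissues. Their part in the member differences was not tested. The summed MHC class II transcripts (Cd74, H2-Aa, H2-Ab1 and H2-Eb1) ran from 1945 to 3116 CPM in aortic LYVE1+ libraries, against 37240 to 42690 CPM in aortic LYVE1- libraries. In the fat they were 12060 CPM in LYVE1+ library 1 and 3219 and 3351 CPM in the other two, against 44440 to 50660 CPM in the LYVE1- libraries. The 5 monocyte markers summed to 20.9 to 23 CPM in aortic LYVE1+ libraries, against 155 to 303 CPM in aortic LYVE1- libraries, and to 75.6 to 278 CPM in fat LYVE1+ libraries, against 653 to 806 CPM in fat LYVE1- libraries. Ccr2 was the one of them called in each tissue, at a log2 difference of -4.40 in the aorta and -3.11 in the fat.

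The 7 dendritic cell markers summed to 159 to 191 CPM in aortic LYVE1+ libraries, where Clec9a was at 0 in all 3, against 289 to 359 CPM in aortic LYVE1- libraries. In the fat they summed to 361 to 503 CPM in LYVE1+ libraries, against 229 to 522 CPM in LYVE1- libraries. By edgeR, Clec9a was called lower in the aorta, at 0 in LYVE1+ libraries and 4.277 CPM on average in LYVE1- libraries (adjusted p = 0.0316), and Cd209a was called higher in the fat, with 281.2 CPM in LYVE1+ and 170.6 CPM in LYVE1- libraries (adjusted p = 0.0301). The 6 eosinophil markers summed to 4.62 to 5.26 CPM in aortic LYVE1+ libraries, against 46.7 to 142 CPM in aortic LYVE1- libraries. Epx, Prg2 and Ear1 were at 0 in the aortic LYVE1+ libraries. Prg2 and Ear2 were called lower in aortic LYVE1+ cells (edgeR adjusted p = 0.0137 and 0.049). In the fat the 6 summed to 9.07 to 87.3 CPM in LYVE1+ libraries, against 140 to 364 CPM in LYVE1- libraries, with Epx at 0 in both groups. None of the 5 tested was called in the fat, and 2 of them, Prg2 and Ccr3, were higher in LYVE1+ cells. Ear2 averaged 22.38 CPM in fat LYVE1+ and 204.3 CPM in fat LYVE1- libraries (edgeR adjusted p = 0.0562). The 6 mast cell markers summed to 1.85 to 12.3 CPM in aortic LYVE1+ libraries, where Kit and Fcer1a were at 0, against 46.9 to 74.8 CPM in aortic LYVE1- libraries. The fat LYVE1+ libraries held 2.22 to 48 CPM of them, against 10.4 to 17.4 CPM in the fat LYVE1- libraries. None of the 5 tested mast cell markers was called within a tissue. All were lower in aortic LYVE1+ cells, while 4 of the 5 were higher in fat LYVE1+ cells. Kit was called lower on the average of both tissues (log2 -5.24, edgeR adjusted p = 0.0411).

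Fibroblasts express Axl and Gas6, and all 8 fibroblast markers were detected in every library. They summed to 861, 2470 and 1160 CPM in the aortic LYVE1+ libraries, against 1300, 2310 and 1820 CPM in the aortic LYVE1- libraries. Library 2 was the highest of both groups in these markers, while it was the highest of the aortic LYVE1+ libraries and the lowest of the aortic LYVE1- libraries in Axl, and the part of fibroblast RNA in the member differences was not tested. In the fat they summed to 441 to 672 CPM in LYVE1+ libraries, against 547 to 1030 CPM in LYVE1- libraries. None of the 8 was called between LYVE1+ and LYVE1- cells of either tissue. All 8 were lower in LYVE1+ cells in both tissues, with a median log2 difference of -0.324 in the aorta and -0.356 in the fat. Without aortic LYVE1+ library 2 the aortic Axl difference was -2.85.

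Of the 4 markers of lymphatic endothelium, which carries LYVE1 itself, Prox1 was the one called in the fat, and none was called in the aorta. Prox1 averaged 2.175 CPM in fat LYVE1+ libraries and 0.03271 CPM in fat LYVE1- libraries, none of which exceeded 0.09814 CPM. The 4 summed to 3.02 to 15.4 CPM in fat LYVE1+ libraries, against 1.67 to 7.55 CPM in fat LYVE1- libraries, and to 13.9 to 40.1 CPM in aortic LYVE1+ libraries, against 9.23 to 18 CPM in aortic LYVE1- libraries. Flt4 was at 0 in all 3 fat LYVE1- libraries. Pdpn went the other way, at a log2 difference of -1.02 in the fat (edgeR adjusted p = 0.552) and -0.08 in the aorta (edgeR adjusted p = 0.979). Ccl21a was called higher in LYVE1+ cells on the average of both tissues (3.36, edgeR adjusted p = 0.0154), as was Prox1 (2.94, edgeR adjusted p = 0.0207). None of the tested markers of other endothelium, smooth muscle, mesothelium, adipocytes, peritoneal macrophages, red cells, T or NK cells, B cells or neutrophils was called between LYVE1+ and LYVE1- cells within a tissue.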

How the data were processed

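RNA of sorted macrophages was sequenced as Smart-seq2 libraries (2 ng of RNA, paired reads of 51 cycles, no strand information) in 12 samples, per the labels' protocols. The protocols name different sequencers and do not say which samples each ran. The authors deposited raw counts per gene and a table of log2 CPM. The deposited log2 values equalled edgeR's own from the counts (TMM, prior count 0.25), to within 4.97e-14, and were not used further. STAR 2.5.2b, featureCounts 1.5.0, edgeR 3.14.0 and GRCm38 were used per the submitters' processing notes. How reads were assigned by strand or when mapped to several places, the annotation release and any filter are not given in the sources used here. Symbols and positions came from GENCODE M21 (GRCm38), which matched 46005 of 46517 identifiers.

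The counts of all 12 libraries were fitted together with 1 mean per group in edgeR 4.0.16 (R 4.3.3, TMM scaling, filterByExpr, glmQLFit and glmQLFTest, 8 residual degrees of freedom), two-sided, with Benjamini-Hochberg adjustment over 14216 genes and a threshold of 0.05. The scripts were tested on simulated counts. LYVE1+ was compared with LYVE1- in each tissue, on the average of both and between tissues. Ratios used counts plus 0.5 and an exact permutation test. Floors are 3 counts.

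The members, lists and tests were chosen with earlier results of these data known. Named genes are the 5 members, the 3 nearest genes to each tested member (average log2 CPM of at least 4, prior count 2), up to 3 called genes per list by smallest adjusted p, or else its most abundant gene, and the genes of the sort. Replicate numbers in the labels are shared by the groups. Deviations from the group means correlated at 0.486, 0.279 and 0.184 between same-numbered LYVE1+ and LYVE1- libraries of the fat, all above the limit of 0.1 used for pairing. Of the differently numbered fat pairs, those of libraries 2 and 3 reached 0.192 and 0.225 and those with library 1 were below 0, so library 1 is the one that clearly pairs. In the aorta same-numbered pairs stood at -0.0441, -0.0767 and -0.17, which does not count as pairing. Differently numbered aortic pairs reached up to 0.218, so passing the limit does not by itself show pairing. Alternatives were no filter, DESeq2 1.42.0, its size factors, the compared groups alone, a replicate block, the library prefix, and leaving libraries out.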

Additional observations from a re-analysis of the deposited data

How the results depend on the processing

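Of 480 member values under alternative settings, 431 kept their direction and side of the threshold, 21 lost a call, 13 gained one and 15 changed direction, and the causes were not tested. Most of the 480 were not called in the main fit and so had no call to lose. The Gas6 average lost its call in 10 of 20 alternatives and Pros1 in the fat in 9 of 21. The Pros1 average lost its call in 1 of 20, and Axl in the aorta in 1 of 21. Axl kept its call in the fat and on the average under every setting tried. With the library prefix in the model its aortic call was lost (-2.77), as were the averages of Gas6 (0.888) and Pros1 (0.826), the Mertk tissue difference (0.231) and the Axl difference between LYVE1- groups (0.269) changed direction, and 2 genes were called in the aorta, 278 on the average, 0 for the tissue difference, 181 between LYVE1+ groups and 7 between LYVE1- groups. At that 0, edgeR gave 651 genes at an unadjusted p below 0.05, and DESeq2 called 111 without the prefix.

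The Gas6 difference in the fat passed with no filter (1.04), when 336, 72, 820 and 647 genes were called in the aorta, for the tissue difference and between tissues in LYVE1+ and LYVE1- cells. It also passed in DESeq2 (1.04), with 360, 1020, 1549, 111, 922 and 850 calls in the aorta, the fat, the average, the tissue difference, LYVE1+ and LYVE1- cells. With the compared groups alone, Gas6 passed in the aorta (0.668), Pros1 was lost in the fat (1.22), and 294, 206 and 243 genes were called in the aorta, the fat and between LYVE1+ groups. DESeq2's size factors changed no member call.

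The replicate block nested in tissue gave Gas6 1.12 in the fat and 243, 915 and 1470 calls in the aorta, the fat and the average. A replicate block in the fat alone, chosen after seeing the data, gave Gas6 0.672 in the aorta and 1.12 in the fat, Pros1 0.737 in the aorta, and 414, 1133, 1706 and 42 calls, the last for the tissue difference. A replicate block over all groups gave Gas6 1.09 in the fat and 12 calls for the tissue difference, and turned the Gas6 difference between LYVE1+ groups to 0.00596. No other member call changed under a block.

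Without both fat libraries numbered 1, Gas6 passed in the aorta (0.673) and the fat (0.92), Pros1 passed in the aorta (0.738), the Mertk tissue difference turned to 0.0327, the Gas6 to Pros1 ratio in the fat moved to -0.364, and 566, 887, 1571, 84, 890 and 1024 genes were called, in the order given for DESeq2.

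Leaving out 1 library at a time gave 23 to 210 calls in the aorta, 219 to 1025 in the fat, 494 to 1635 on the average, 0 to 47 for the tissue difference, 172 to 538 between LYVE1+ groups and 98 to 531 between LYVE1- groups. At the 7 fits with 0, edgeR gave 722 to 848 genes at an unadjusted p below 0.05. Gas6 ran from 0.729 to 1.34 in the fat and 0.701 to 1 on the average, and Pros1 from 0.999 to 1.5 in the fat. Values whose direction changed were the Mertk tissue difference (-0.195 to 0.161), the differences between LYVE1+ groups of Axl (-0.302 to 0.53), Mertk (-0.25 to 0.105), Gas6 (-0.241 to 0.0877) and Pros1 (-0.443 to 0.0614), the Mertk difference between LYVE1- groups (-0.211 to 0.102), and the Gas6 to Pros1 ratio over both tissues (-0.129 to 0.0376).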
